A study of Mus musculus with 6 samples.

Results

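Tryptophan that is not used for protein is mostly broken down through kynurenine, and 10 enzymes of that route were followed here in basal cells of the embryonic mouse epidermis: Tdo2, Ido1, Afmid, Kyat1, Kyat3, Aadat, Got2, Kmo, Kynu and Haao. They are 10 of the 55536 genes listed in the count table, found by their Ensembl gene IDs. The set was chosen by the rise of Kyat3 in TKO against Ctrl in these same 6 libraries, so the rise of Kyat3 is given below as a description, without a test, and the question put to the data is whether the other 9 enzymes moved with it.

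The study removed enzymes that place trimethylation on lysine 9 of histone H3 (H3K9me3), a mark of silent chromatin, from the developing epidermis, and sequenced RNA in bulk from Epcam+ α6+ basal cells sorted from dorsal skin at E16.5. The Ctrl group was Suv39h1 f/f, Suv39h2-/-, Setdb1 f/f without the K14CreERT2 transgene, and the TKO group carried the same alleles with K14CreERT2. Embryos of both groups were exposed to tamoxifen, and both groups are labelled Suv39h2-/-. The contrast is thus the induced loss of Suv39h1 and Setdb1 on a background without Suv39h2. It also includes the K14CreERT2 transgene, which only TKO carried and whose own effect cannot be told apart from that loss. Each group had 3 libraries, numbered 1 to 3. Cre was driven by the keratin 14 promoter and therefore acted in keratin 14 expressing cells, recombination in these embryos was mosaic, and the mice were of mixed genetic background. According to the paper, controls were as a rule littermates without Cre. Nothing in the labels says which libraries came from the same litter, so p-values measure the spread between these libraries. Total counts per library were 102159175, 136515436 and 104422632 in Ctrl and 116308383, 108957256 and 118413082 in TKO. Levels are counts per 1000000 counts (CPM) on library sizes scaled by trimmed mean of M-values, and 3 counts, the limit that a count of 0 allows, correspond to 0.0232 to 0.0303 CPM.

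In this pathway Tdo2 or Ido1 opens the ring of tryptophan to give N-formylkynurenine, and Afmid, a formamidase, turns that into kynurenine. Kynurenine then has alternative fates. Kmo hydroxylates it, Kynu cleaves the product and Haao opens the ring on the way to quinolinate and NAD, whereas the kynurenine aminotransferases Kyat1, Kyat3, Aadat and Got2 close it into kynurenic acid. Kyat1 and Kyat3 also act on glutamine and on cysteine conjugates, and Got2 is better known as the mitochondrial aspartate aminotransferase of the malate-aspartate shuttle. Kynurenine and kynurenic acid can bind the aryl hydrocarbon receptor, which is active in skin.

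Kyat1 and Kyat3 are the closest relatives among the 4 aminotransferases, and the windows around their RefSeq starts are printed to show what kind of promoter each is annotated with. GENCODE also lists Kyat3 transcripts that begin further inside the gene, so the window is not put forward as the start from which the additional Kyat3 RNA came. Each runs 5′ to 3′ on the strand of its gene, from 250 bases before the start of transcription to 50 bases after it, as RefSeq gives it on GRCm38.p6, at chr3:142700798-142701097 on the plus strand for Kyat3 and chr2:30205798-30206097 on the minus strand for Kyat1. Capitals mark the dinucleotide CG, the site of DNA methylation in mammals.
Kyat3: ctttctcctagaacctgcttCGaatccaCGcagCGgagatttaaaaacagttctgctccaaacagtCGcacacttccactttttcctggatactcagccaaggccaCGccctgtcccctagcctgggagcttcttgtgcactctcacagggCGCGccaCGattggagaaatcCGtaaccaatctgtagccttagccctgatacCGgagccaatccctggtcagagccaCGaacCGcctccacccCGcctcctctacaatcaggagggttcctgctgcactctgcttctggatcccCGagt
Kyat1: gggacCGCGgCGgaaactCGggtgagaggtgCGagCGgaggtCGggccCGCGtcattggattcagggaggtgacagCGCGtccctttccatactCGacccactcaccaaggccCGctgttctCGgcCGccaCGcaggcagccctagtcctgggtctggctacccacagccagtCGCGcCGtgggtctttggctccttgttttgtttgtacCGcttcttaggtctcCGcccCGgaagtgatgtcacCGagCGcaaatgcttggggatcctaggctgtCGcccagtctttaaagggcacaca
The Kyat3 promoter held 14 CG and that of Kyat1 25. Promoter sequences were matched for 8 of the 10 enzymes, and the other aminotransferases had 24 CG for Got2 and 14 for Aadat. Across 32851 promoters of the same length the median was 7 CG and 94.6% held at least 1 on either strand. The promoter of Kyat3 had more CG than 63.7% of them and that of Kyat1 more than 81.6%. A count of CG is a description of these windows, and neither DNA methylation nor H3K9me3 was measured in these libraries.

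None of the 3 genes the study targeted had an adjusted p under 0.05 (edgeR quasi-likelihood test). Setdb1 was 125.5, 117.9 and 121.1 CPM in Ctrl and 95.3, 62.3 and 74.9 CPM in TKO. The groups did not overlap, and TKO 2 was the lowest library. The log2 fold change of Setdb1 was -0.65 ± 0.16 (SE) at an adjusted p of 0.286 (edgeR quasi-likelihood test). For Suv39h1 it was -0.10, from 75.6, 68.9 and 89.4 CPM in TKO against 88.7, 78.5 and 84.0 in Ctrl. Suv39h2 had 15.9, 17.1 and 15.6 CPM in Ctrl and 18.9, 16.0 and 17.5 CPM in TKO, although both groups are labelled as lacking it. A count over the whole gene can include reads from transcripts that lack a deleted exon, so these counts say little about how complete the deletions were. In bulk cells a mixture of recombined and other cells and a smaller change in every cell cannot be told apart.

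Kyat3 was the aminotransferase that stood apart. The gene, ENSMUSG00000040213, lies at chr3:142406764-142452631 on the plus strand (GENCODE vM39, GRCm39). Its level was 36.1, 35.8 and 29.7 CPM in Ctrl libraries 1 to 3 and 123.9, 196.7 and 117.1 CPM in TKO libraries 1 to 3. The 3 TKO libraries thus all lay above the 3 Ctrl libraries, and the lowest TKO level was 3.25 times the highest Ctrl level. Ctrl libraries lay close together, with a highest level 1.21 times the lowest, whereas TKO 2, also the library with the least Setdb1, was 1.63 times the mean of the other TKO libraries. TKO 1 had more Setdb1 than TKO 3, at 95.3 against 74.9 CPM, and also more Kyat3. The mean of Kyat3 was 33.8 ± 3.58 CPM over the Ctrl libraries and rose 4.31-fold to 145.9 ± 44.2 CPM over the TKO libraries (SD, n = 3 each). The fitted log2 fold change was 2.11 with a standard error of 0.21. It comes from the contrast that chose the gene, so no interval or test is given and the size may be overstated by that choice. These values rest on 3203 to 4622 counts per library in Ctrl and 14240 to 21725 in TKO, so that counting error was small beside the spread between libraries. Gene-level counts do not separate transcripts, and neither the transcript nor the start site behind the rise of Kyat3 can be read from them. The study's nascent RNA assay, which bears on start sites, was not analysed here.

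Library names carry a letter F or M, and Ctrl 1 and TKO 2 carry F. Between the F libraries, 1 of each group, the log2 ratio for Kyat3 was 2.45, and between the M libraries, 2 of each group, it was 1.89. Under the 13 other settings tried, which include leaving out each library in turn, the log2 fold change of Kyat3 ran from 1.83 to 2.24. All these values come from the libraries whose rise chose Kyat3, so they are a description and no separate support for the rise.

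**Figure D1:**
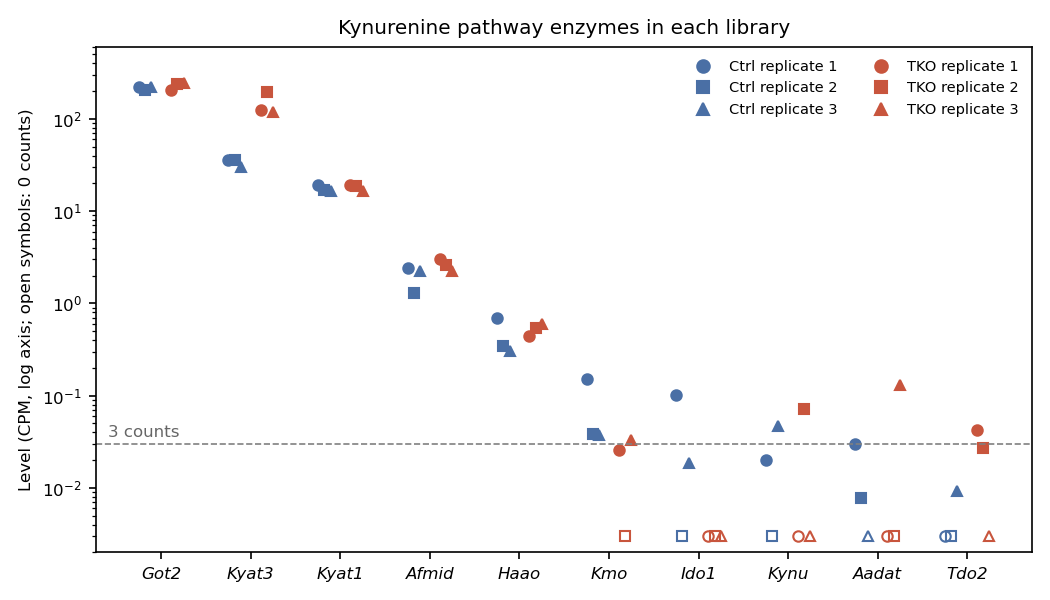
Levels of the 10 kynurenine pathway enzymes in CPM on a log axis, ordered by mean Ctrl level, with 1 symbol per library (blue, Ctrl; red, TKO; circle, square and triangle, replicates 1 to 3); open symbols at the bottom are counts of 0 and the dashed line is the highest level that 3 counts give. For Kyat3 the TKO symbols sit between 117.1 and 196.7 CPM, all above the Ctrl symbols, while the groups overlap for Got2, Kyat1, Afmid and Haao.

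Kyat1, the other glutamine transaminase, showed no such shift. The gene, ENSMUSG00000039648 at chr2:30075136-30096310 on the minus strand (GRCm39), had 19.3, 16.8 and 16.52 CPM in Ctrl and 19.4, 18.8 and 16.49 CPM in TKO. Both groups covered the same range. Its log2 fold change was 0.05 ± 0.15 (SE, n = 3 per group), with a 95% interval from -0.29 to 0.39.

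Got2 had the highest level per kilobase of exons of the 10 in both groups. ENSMUSG00000031672, at chr8:96590760-96615190 on the minus strand (GRCm39), had 219.8, 204.1 and 223.7 CPM in Ctrl and 205.2, 237.0 and 244.0 CPM in TKO, and the groups overlapped. The log2 fold change was 0.08 ± 0.13 (SE), with a 95% interval from -0.21 to 0.38. Of the 50-base stretches in its annotated transcripts, 26.4% also occur in transcripts of other genes, so part of its reads could be split by the counting. For Kyat3 and Kyat1 those shares were 2.54% and 3.26%.

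Aadat, the α-aminoadipate aminotransferase, was near the detection limit. It had 3, 1 and 0 counts in Ctrl and 0, 0 and 16 counts in TKO. All of the TKO counts came from TKO 3, and the gene was too low to be tested.

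Levels of different genes can be set side by side only per length, and this was done as CPM per kilobase of all annotated exons. In Ctrl cells Got2 had 38.8 CPM per kilobase, Kyat1 4.15 and Kyat3 3.39. In TKO cells Got2 had 41.1 CPM per kilobase, Kyat3 14.6 and Kyat1 4.31. The order of Kyat1 and Kyat3 thus changed between the groups on this scale. Kyat3 per kilobase was 0.79, 0.90 and 0.76 times Kyat1 in the Ctrl libraries and 2.71, 4.44 and 3.01 times Kyat1 in the TKO libraries. The order in Ctrl depended on the length used. With the canonical transcript of each gene, a choice made after seeing the data, Kyat3 had 8.42 and Kyat1 8.20 CPM per kilobase in Ctrl, while in TKO Kyat3 had 36.3 and Kyat1 8.51. Kyat1 and Kyat3 are therefore not put in order in Ctrl.

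Put as shares of the summed level per kilobase of exons of the 4 aminotransferases, Kyat3 made up 7.58, 8.10 and 6.33% in the Ctrl libraries and 23.1, 29.5 and 19.7% in the TKO libraries. Got2 made up 82.8 to 85.4% in Ctrl and 63.8 to 73.7% in TKO, although its own level in CPM overlapped between the groups. Kyat1 held 8.29 to 9.57% in Ctrl and 6.55 to 8.50% in TKO. A share falls when another member rises, so the lower shares of Got2 and Kyat1 follow from the rise of Kyat3 that chose the set.

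**Figure D2:**
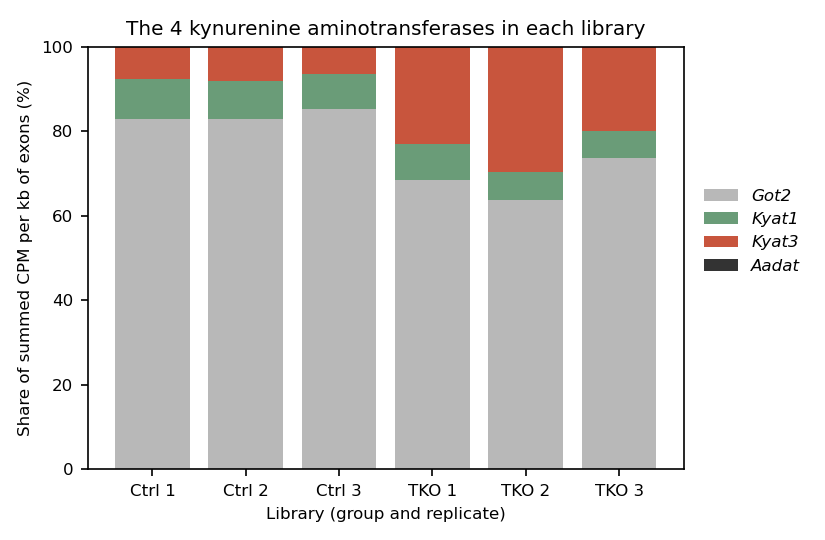
Share of each kynurenine aminotransferase in the summed CPM per kilobase of exons of the 4 genes (%), 1 stacked bar per library. The Kyat3 segment spans 6.33 to 8.10% in the Ctrl libraries and 19.7 to 29.5% in the TKO libraries, and Aadat is too low to be seen.

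The enzymes that make kynurenine were low or barely detected. Afmid (ENSMUSG00000017718, chr11:117716712-117730734 on the plus strand, GRCm39) had 2.41, 1.29 and 2.25 CPM in Ctrl and 3.01, 2.59 and 2.24 CPM in TKO. TKO 3 lay below 2 of the Ctrl libraries and the groups overlapped. Its log2 fold change was 0.40 ± 0.35 (SE), with a 95% interval from -0.38 to 1.17, and this interval leaves room for a rise of more than 1 log2 unit as well as for none. Of its 50-base stretches 42% also occur in other genes, 39.8% in Gm20708, which overlaps it on the same strand and was listed with 0 counts. Tdo2, the enzyme of the liver, had 0, 0 and 1 counts in Ctrl and 5, 3 and 0 in TKO. Of its 50-base stretches 47.5% are shared with Ctso, a gene on the opposite strand that overlaps it. Ido1, the form induced by interferon gamma, had 10, 0 and 2 counts in Ctrl and 0 counts in each TKO library, which allows up to 0.0272 CPM.

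The branch towards quinolinate and NAD was as low. Haao (ENSMUSG00000000673, chr17:84138583-84155392 on the minus strand, GRCm39) had 0.70, 0.35 and 0.31 CPM in Ctrl and 0.44, 0.54 and 0.59 CPM in TKO. Ctrl 1 was the highest library and the groups overlapped, with a log2 fold change of 0.23 ± 0.51 (SE) and a 95% interval from -0.91 to 1.36. Kmo had 15, 5 and 4 counts in Ctrl and 3, 0 and 4 in TKO, and Kynu had 2, 0 and 5 counts in Ctrl and 0, 8 and 0 in TKO. Most of the Kmo counts in Ctrl came from Ctrl 1. At these levels no difference was detectable for Kmo, Kynu, Tdo2, Ido1 or Aadat, and per kilobase of exons Afmid (0.55 CPM in Ctrl, 0.73 in TKO) and Haao (0.096 in Ctrl, 0.112 in TKO) were well below the aminotransferases that were tested.

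Across all genes, 20622 passed the filter on low counts and 27 were called higher in TKO, that is 0.131% of those tested, at an adjusted p under 0.05 and a log2 fold change above 1 (edgeR quasi-likelihood test, Benjamini-Hochberg adjustment). The share called lower at a log2 fold change below -1 was 0%. The number called in either direction ran from 7 to 81 when 1 library was left out. By the unadjusted p under 0.05, 837 genes were higher and 416 lower, and DESeq2 on the same genes called 193 higher and 21 lower. Of the 10 enzymes 5 were tested. Kyat3 is among the 27 by the choice of the set, from which nothing is read. None of the other 4, Kyat1, Got2, Afmid and Haao, was called, at an adjusted p of 0.9998 for each (edgeR quasi-likelihood test), 0 of the 4 had an unadjusted p under 0.05, and DESeq2 called 0. In 6.35% of all tested genes the lowest TKO library exceeded the highest Ctrl library, and in 5.11% the highest TKO library was under the lowest Ctrl library. Among the 4 enzymes the groups overlapped in all. Within these limits Kyat3 was higher in TKO and no other tested enzyme of the set passed the test, although the intervals of Afmid and Haao are wide.

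In CPM, which is not scaled to gene length, Kyat3 ranked 2 among the 27 genes past both thresholds in each group. Its Ctrl mean in CPM was above that of 72.7% of the tested genes and its TKO mean above that of 93.6%. Per kilobase of exons the called gene Rps3a2 was above Kyat3, at 5.67 against 3.39 CPM in Ctrl and 56.6 against 14.6 CPM in TKO. The 27 genes had a median Ctrl mean of 0.130 CPM, 8 of them reached 1 CPM in Ctrl and 2 reached 10 CPM. Those 2 were Kyat3 and Atf7ip, a binding partner of SETDB1, which is named here after its values were seen. Atf7ip had 166.7, 177.0 and 219.2 CPM in Ctrl and 360.0, 468.6 and 385.1 CPM in TKO, and it was also the called gene nearest the threshold, at 1.11 log2 units and an adjusted p of 0.0429 (edgeR quasi-likelihood test). Just outside was Sprr2a3, a small proline-rich protein gene, at 1.92 log2 units and an adjusted p of 0.0502.

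Ribosomal RNA left in the libraries was followed through the mitochondrial ribosomal RNAs mt-Rnr1 and mt-Rnr2 and through Mir6236, which are marked in the plot of all tested genes. mt-Rnr2 had 30.4, 167.6 and 1.73 CPM in Ctrl and 337.1, 855.0 and 1.97 CPM in TKO, and varied widely within each group. In Ctrl 3 and TKO 3, where mt-Rnr2 was lowest, Kyat3 was 29.7 and 117.1 CPM, the lowest level of each group, and TKO 2, with the most mt-Rnr2, had the most Kyat3. Ctrl 2 had the most mt-Rnr2 of its group and slightly less Kyat3 than Ctrl 1, at 35.8 against 36.1 CPM. The part of ribosomal RNA in the level of Kyat3 was not tested.

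**Figure D3:**
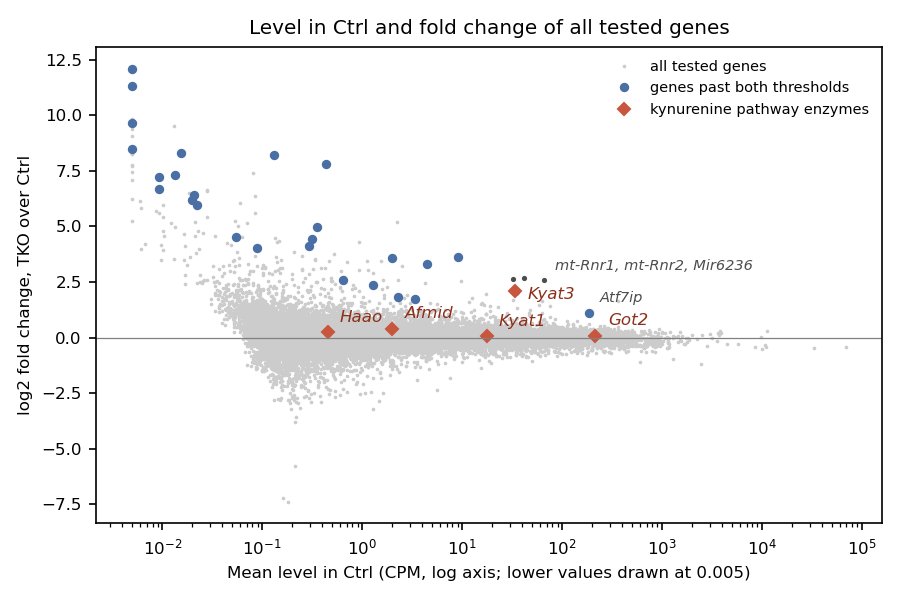
Mean Ctrl level in CPM (log axis) against log2 fold change, TKO over Ctrl, for the 20622 tested genes (grey), the 27 genes past both thresholds (blue) and the 5 tested kynurenine pathway enzymes (red diamonds). Kyat3 sits at 33.8 CPM and 2.11, apart from Kyat1, Got2, Afmid and Haao, which lie near 0 on the vertical axis.

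Genes next to Kyat3 on the chromosome were read from the same fit. Of the 10 genes on each side, 15 of 20 were in the table, 5 were tested and none was called (edgeR), with 0 called by DESeq2 and 0 at an unadjusted p under 0.05. Over all tested genes 0.131% were called higher and 0% lower, so nothing is read from 0 of 5. The nearest tested gene downstream, Gtf2b, which encodes general transcription factor TFIIB, begins 64.0 kilobases from the Kyat3 start. It had 26.7, 35.7 and 23.6 CPM in Ctrl and 26.8, 28.1 and 25.2 CPM in TKO, and the groups overlapped, with a log2 fold change of -0.10 ± 0.18 (SE). Beyond it Pkn2, a protein kinase gene, had a log2 fold change of 0.12 ± 0.17. Upstream lie interferon-induced guanylate-binding protein genes, of which Gbp2 and Gbp3 were the nearest tested. Their log2 fold changes were -0.27 ± 0.96 and 0.04 ± 0.68, on levels under 1 CPM, so that a change there would have been hard to see. The long noncoding RNA Gm15540 overlaps Kyat3 on the opposite strand, shares 1.74% of its 50-base stretches and was listed with 0 counts in all libraries. A second one, Gm56810, lies on the same strand inside the span of Kyat3 and was not analysed here.

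**Figure D4:**
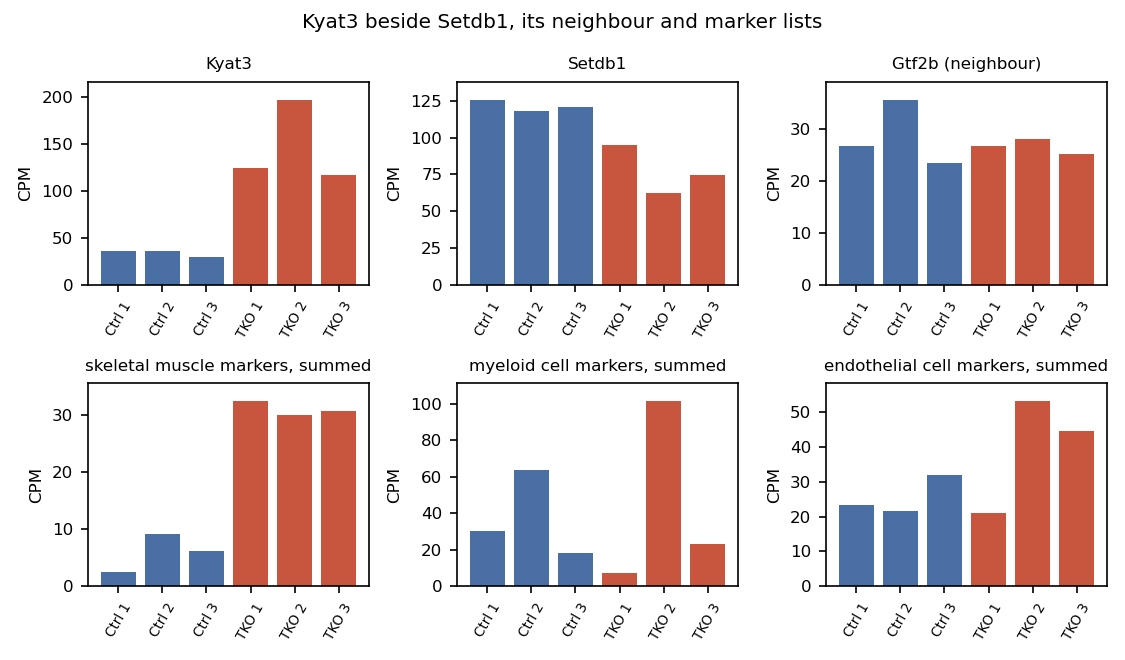
Levels in CPM in each library (blue, Ctrl; red, TKO) of Kyat3, Setdb1, the neighbouring gene Gtf2b and the summed markers of 3 other cell types. Kyat3 and the sum of skeletal muscle markers are higher in all TKO libraries, Setdb1 is lower in all, and Gtf2b, the myeloid markers and the endothelial markers overlap between the groups.

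Other genes of tryptophan, kynurenine and NAD metabolism were examined in 8 lists of 62 genes in all, of which 50 were tested. None was called in either direction (edgeR quasi-likelihood test), and DESeq2 called 0 as well. Over all tested genes edgeR called 0.131% higher and 0% lower, so nothing is read from 0 in these lists. With the unadjusted p under 0.05, 3 of the 50 genes were lower in TKO and 0 higher, beside 416 lower and 837 higher of all 20622 tested, so few that nothing is read from the split. The median log2 fold change over the 50 genes was -0.05, beside 0.01 over all tested genes, and 20 of them lay above 0. In none of them did all TKO libraries exceed all Ctrl libraries, against 6.35% of all tested genes, and in 5 every TKO library was below, against 5.11%.

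Of 7 further enzymes on or beside the route from tryptophan to NAD, 4 were tested and none was called. Those tested had log2 fold changes from -0.24 to 0.12. Nmnat2 and Nmnat3, which join nicotinamide mononucleotide to adenylate to form NAD, had the highest CPM. Nmnat2 had 9.97, 18.5 and 16.8 CPM in Ctrl and 10.9, 8.36 and 19.1 CPM in TKO, and Nmnat3 had 8.35, 9.12 and 10.6 CPM in Ctrl and 9.36, 8.42 and 10.5 CPM in TKO. Of 7 genes of NAD salvage and related steps 6 were tested and none was called. Nampt, the rate-limiting enzyme of salvage, had a log2 fold change of -0.08 ± 0.19, and Nadk, the kinase that makes NADP, one of -0.19 ± 0.12. Both groups overlapped for these 4 genes.

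For uptake and other uses of tryptophan 12 of 14 genes were tested and none was called, and its median log2 fold change was -0.01. Slc7a5 and Slc3a2 encode the light and heavy chains of LAT1, the transporter that carries tryptophan and kynurenine. Slc7a5 had 446.2, 334.0 and 507.5 CPM in Ctrl and 408.4, 403.2 and 526.8 CPM in TKO, a log2 fold change of 0.06 ± 0.19. For Slc3a2 it was -0.01 ± 0.15. The groups overlapped for both chains.

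Receptors that bind metabolites of the pathway were present. Ahr, the aryl hydrocarbon receptor, had 69.6, 90.7 and 92.7 CPM in Ctrl and 78.7, 76.6 and 81.5 CPM in TKO. Arnt, its partner, had a log2 fold change of 0.06 ± 0.13, and none of the 3 receptor genes tested was called. Of 7 target genes of the receptor 5 were tested and none was called. Cyp1a1, the target most often used to read the receptor, had counts in TKO 1 alone, at 0.110 CPM, and Cyp1a2 had 0 counts in every library. Tiparp, which encodes an ADP-ribosyltransferase that limits the receptor, had 42.2, 70.3 and 44.9 CPM in Ctrl and 31.6, 37.5 and 31.6 CPM in TKO. All TKO libraries of Tiparp lay below all Ctrl libraries, by -0.64 ± 0.20 log2 units at an adjusted p of 0.527 (edgeR). Nqo1, a quinone reductase, had one of -0.14 ± 0.22 with overlapping groups.

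Of 11 transaminases outside the pathway 8 were tested and none was called. Their log2 fold changes ran from -0.79 to 0.35 with a median of -0.11, and 3 of the 8 lay above 0. Psat1, of serine synthesis, had the highest CPM, with 723.2, 647.9 and 621.7 CPM in Ctrl and 475.2, 445.7 and 639.6 CPM in TKO. TKO 3 fell among the Ctrl libraries, and the log2 fold change was -0.35 ± 0.17. Oat, which acts on ornithine, had one of -0.27 ± 0.15. Gpt, the cytosolic alanine aminotransferase, had 19.6, 17.6 and 16.9 CPM in Ctrl and 10.3, 9.51 and 11.4 CPM in TKO. Its groups were apart, by -0.79 ± 0.16 log2 units at an adjusted p of 0.173 (edgeR), which did not pass the threshold and was the smallest among the 50.

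Kyat1 and Kyat3 can also transaminate glutamine and split cysteine conjugates, and 5 genes that meet them there were all tested with 0 called. Cbs, cystathionine β-synthase, had 73.1, 83.1 and 74.5 CPM in Ctrl and 65.3, 72.7 and 68.1 CPM in TKO. Its groups did not overlap, although the log2 fold change was only -0.16 ± 0.12. Mpst, a mercaptopyruvate sulfurtransferase, had one of -0.05 ± 0.19 with overlapping groups. Nit1, a nitrilase-family amidase, was also lower in each TKO library, at -0.15 ± 0.14.

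Upstream of Ido1, 7 of 8 genes of the interferon gamma response were tested and none was called. Ifng itself had 0 counts in every library. Jak1 had a log2 fold change of 0.06 ± 0.14 and Ifngr2 one of 0.10 ± 0.21. Ifngr1, the ligand-binding chain of the receptor, had 25.2, 26.3 and 30.0 CPM in Ctrl and 14.4, 14.2 and 20.9 CPM in TKO. Here the groups were apart, by -0.72 ± 0.19 log2 units at an adjusted p of 0.320 (edgeR). Gpt, Ifngr1 and Nit1 were named after their values were seen, because their groups did not overlap. Tiparp and Cbs, whose groups did not overlap either, were named for their level.

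**Figure D5:**
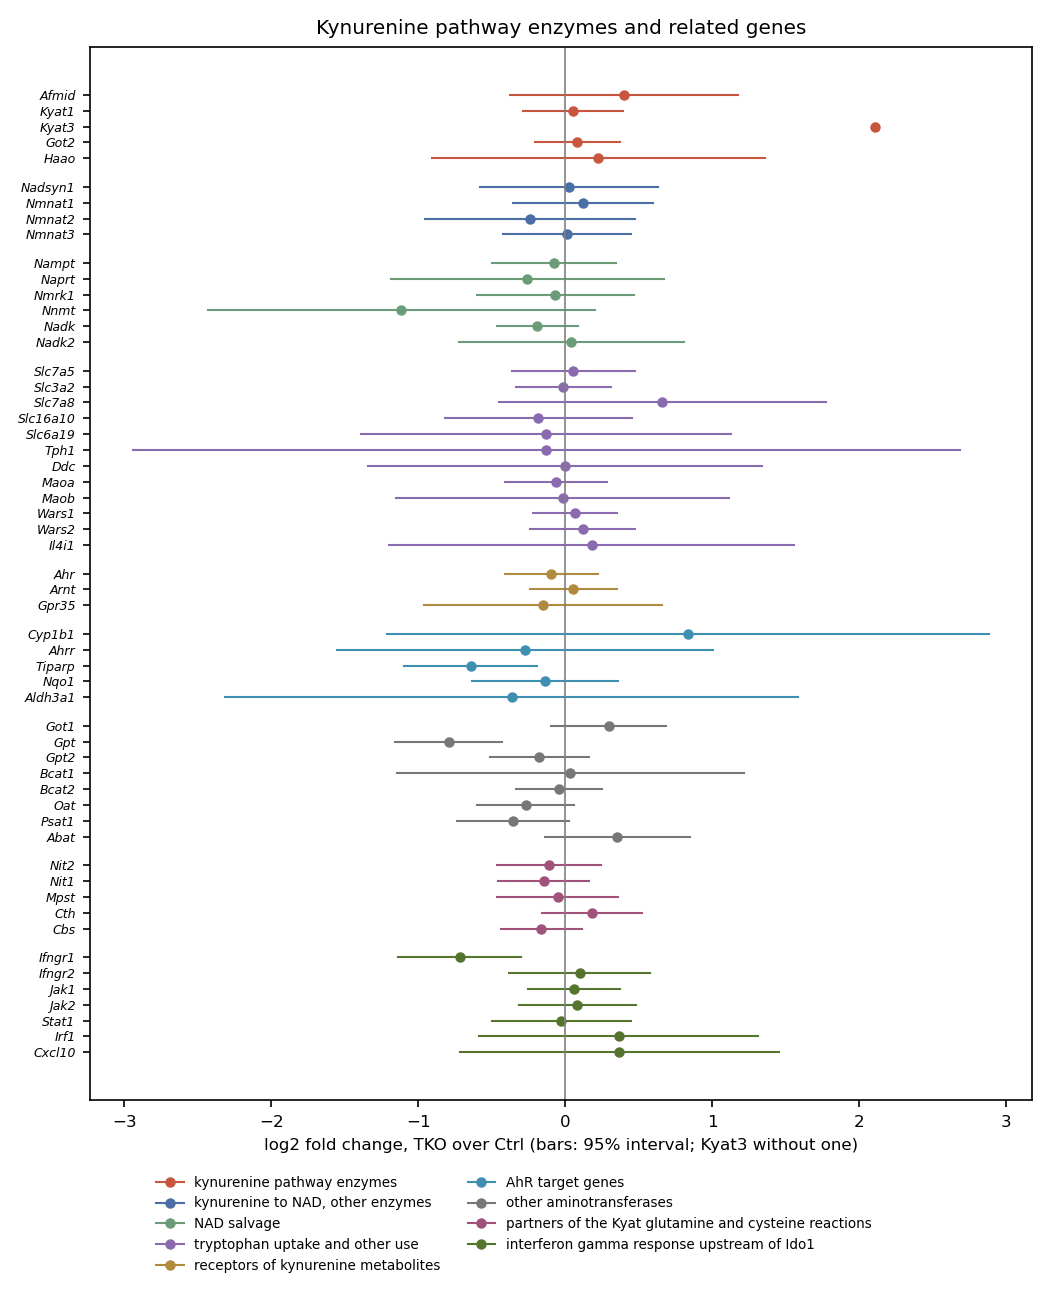
Log2 fold change, TKO over Ctrl (points), with its 95% interval (bars) for the 5 tested kynurenine pathway enzymes and 50 tested genes of the related lists, coloured by list. Kyat3, at 2.11, was chosen for its rise and is drawn without an interval; among the others Gpt, Ifngr1 and Tiparp have intervals wholly below 0, none of them past the adjusted threshold.

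The sorted cells carried keratinocyte markers. Summed over 7 genes, basal keratinocyte markers reached 21613, 21522 and 16018 CPM in Ctrl and 14125, 16034 and 17658 CPM in TKO, with Krt5 the most abundant, and all 7 were detected and none was called. Suprabasal markers, led by Krt1, were 18047, 17650 and 19551 CPM in Ctrl and 15777, 11798 and 12400 CPM in TKO. All TKO sums lay below all Ctrl sums, while 0 of the 4 suprabasal genes were called. Nearly all of that sum was Krt1 and Krt10, keratins of the layers above the basal one, whose groups were apart. The other 2 genes of the list, Ivl and Flg, were scarce, with means of 2.36 and 0.159 CPM in Ctrl and 2.28 and 0.187 CPM in TKO, and their groups overlapped. Whether their lower sum in TKO has a part in the level of Kyat3 was not tested.

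The summed skeletal muscle markers were also higher in all TKO libraries, mostly through Ttn, which encodes titin. Their sum over 5 genes was 2.55, 9.19 and 6.10 CPM in Ctrl and 32.4, 30.0 and 30.8 CPM in TKO. Ttn alone had 1.33, 7.41 and 3.90 CPM in Ctrl and 26.1, 22.1 and 20.9 CPM in TKO, at an adjusted p of 0.181 (edgeR). All TKO libraries lay above all Ctrl libraries for 3 of the 5, Ttn, Myh3 and Myh8, against 6.35% of all tested genes. The groups overlapped for Acta1 and Tnnt3. Of the 5 genes 1 was called, Myh3, embryonic myosin heavy chain, at an adjusted p of 0.0211 (edgeR quasi-likelihood test). Over all tested genes 0.131% were called higher. The Epcam+ α6+ gate is meant to leave out muscle, myeloid and endothelial cells. The part of these markers in the rise of Kyat3 was not tested, and fewer or more cells of a type and less or more RNA per cell cannot be told apart in bulk samples.

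Other cell types were followed in the same way. Myeloid markers, 8 genes led by Csf1r, summed to 30.2, 63.8 and 18.3 CPM in Ctrl and 7.41, 101.2 and 23.3 CPM in TKO. The lowest sum was in TKO 1, where Kyat3 was 123.9 CPM, and the highest in TKO 2, the library with the most Kyat3. Endothelial markers, 3 genes led by Cdh5, summed to 23.3, 21.6 and 32.0 CPM in Ctrl and 21.0, 53.0 and 44.4 CPM in TKO. Fibroblast markers, 6 genes led by Col1a1, were between 1203 and 3358 CPM in Ctrl and between 2162 and 2807 CPM in TKO. Erythroid markers, 3 genes led by Hba-a1, ran from 19.3 to 69.9 CPM in Ctrl and from 62.4 to 121.4 CPM in TKO. Melanocyte markers, 4 genes led by Dct, summed to between 3.11 and 8.10 CPM in all libraries. Within that list Mlana, named after its values were seen, had 0.141, 0.015 and 0.167 CPM in Ctrl and 0.994, 1.53 and 0.304 CPM in TKO. Its groups did not overlap, and its adjusted p was 0.360 (edgeR). The groups overlapped in each of the 5 sums of myeloid, endothelial, fibroblast, erythroid and melanocyte markers, and no gene of them was called. Hepatocyte markers, listed because the liver expresses Tdo2, Kynu and Haao, summed to at most 1.42 CPM in 5 libraries and to 25.8 CPM in TKO 3. The sum in TKO 3 was 1 gene, Ttr, at 25.4 CPM. Alb, Afp, Apoa1 and Apoa2 had 9, 0, 30 and 7 counts there, and 86, 15, 17 and 12 counts in Ctrl 1. Apoa1 was highest of the 6 libraries in TKO 3, at 0.247 CPM. In TKO 3 the counts of Tdo2, Kynu and Haao were 0, 0 and 72.

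Likeness to Kyat3 was measured as the Pearson correlation of log2 CPM over the 6 libraries, among 14051 genes with a mean of at least 1 CPM. All points of such a correlation come from the same 2 groups, so that it mostly reflects the difference between them, and it is given as a description. The 5 most alike were Gm29439 (r = 0.993), Zfp248 (0.989), Gm26672 (0.987), Rps3a2 (0.986) and Gm36551 (0.984). Gm29439, Gm26672 and Gm36551 had Ctrl means of 0, 0.292 and 0.0155 CPM and TKO means of 4.80, 5.15 and 5.79 CPM. They reached the limit of 1 CPM only through the TKO libraries, so nothing is read from their rank. Zfp248, which encodes a zinc finger protein, had 3.20, 3.37 and 3.33 CPM in Ctrl and 4.89, 5.37 and 4.60 CPM in TKO, a smaller difference than that of Kyat3 in the same order of TKO libraries. Rps3a2, a copy of a ribosomal protein gene whose reads may be shared with its near-identical relatives, had 4.23, 5.02 and 4.21 CPM in Ctrl and 42.9, 52.8 and 38.7 CPM in TKO. Gm29439 had 0 counts in each Ctrl library and 3.54, 9.33 and 1.54 CPM in TKO. By the same measure the other tested enzymes had r = 0.544 for Afmid, 0.432 for Got2, 0.416 for Haao and 0.356 for Kyat1. Afmid, the nearest of them, ranked 2003 among the genes compared.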

How the data were processed

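Total RNA of sorted cells was depleted of ribosomal RNA and sequenced from both ends. The authors trimmed reads with fastp and mapped them with STAR, and deposited whole-number counts per Ensembl gene for the 6 libraries. Their methods name genome GRCm39 and the labels GRCm38. The counting program, annotation and use of strand are not given in the sources used here, so reads of overlapping genes on opposite strands may not be told apart. For the other enzymes, Afmid overlaps Tk1, Kmo overlaps Fh1 and Haao overlaps Mta3.

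Counts were tested with edgeR 4.0.16 in R 4.3.3 (quasi-likelihood test, robust estimation, group as the only term, trimmed mean of M-values scaling) on genes kept by filterByExpr (minimum count 10, total at least 15), with Benjamini-Hochberg adjustment over all 20622. The study's methods use DESeq2, which was run here as an alternative (version 1.42.0). Gene positions and exon lengths were from GENCODE vM39 (51477 of 55536 IDs matched), and neighbour order and promoters from RefSeq. Scripts were tested on simulated data.

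The members and lists were chosen with earlier results of these data known. Named were the 10 enzymes, the targeted genes, the 2 genes of each list with the highest mean CPM and any called, the 2 nearest tested neighbours on each side of Kyat3 and overlapping genes, the 5 genes most alike, and the marker of each cell type with the highest mean CPM. Intervals are 95%. Alternatives were another test, other scalings and filters, terms for replicate number or library letter, and each library left out.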

Additional observations from a re-analysis of the deposited data

How the results depend on the processing

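The 27 genes past both thresholds were the value that depended most on the processing. DESeq2 called 214, edgeR with no filter beyond 1 count 235, edgeR with at least 10 counts in every library 9, and edgeR with a replicate block 45, all 27 among these last. Leaving out 1 library gave 7 to 81: 8, 7 and 8 without Ctrl replicates 1, 2 and 3, 25 without TKO replicate 1, 15 without TKO replicate 2 and 81 without TKO replicate 3. The cause was not tested. RLE size factors gave 30, total counts 27 and the library letter as a factor 23. The count of other enzymes, of related pathway genes and of neighbours of Kyat3 called was 0 under all 13 alternatives, and the 52 values of the 4 other tested enzymes kept their direction and their side of the threshold. Afmid ran from 0.16 to 0.56, Kyat1 from 0.00017 to 0.13, Got2 from 0.034 to 0.15 and Haao from 0.011 to 0.68 on the log2 scale. The share of Kyat3 among the aminotransferases in Ctrl was 7.34% by exon length and 8.30% by the canonical transcript, a length chosen after seeing the data, and in TKO 24.1% and 26.6%.

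Libraries of the groups share replicate numbers, and those of the same number also carry adjacent running numbers in their library names, but no label says that either marks a litter or a batch. Deviations from the group means correlated at 0.168, 0.0873 and 0.127 for libraries of the same number and at -0.161 to 0.0398 for different numbers, so each library was most like the one of its own number. The paper gives littermates as the usual controls, but no source ties the numbers to litters, and the pairing by number is a hint from the data. Depth limits Tdo2, Ido1, Aadat, Kmo and Kynu, which had at most 16 counts in a library, and 3 libraries per group limit Afmid and Haao.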

Other observations

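TKO replicate 3 held 3090 counts of Ttr, the transthyretin gene, which liver and choroid plexus express strongly, whereas the other TKO libraries had 0 and the Ctrl libraries at most 0.111 CPM. Of the other hepatocyte markers TKO replicate 3 held 9 counts of Alb, 0 of Afp, 30 of Apoa1 and 7 of Apoa2, and its Apoa1 level, 0.247 CPM, was the highest of the 6 libraries. The same library held all 16 TKO counts of Aadat.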
